A study of Mus musculus with 3 samples.

Results

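The cells described here were marrow stromal cells of mouse long bone that carried *Lepr* and *Cxcl12* and also held RNA of interferon-inducible genes. They were taken from 3 untreated droplet libraries of C57BL/6 mice aged 3 weeks. Metaphyseal replicates 1 and 2 held cells of femur and tibia metaphysis from C57BL/6J males, from which lineage-positive cells and then CD45+ and CD117+ cells had been removed with beads. The *Pdgfra-GFP* library held GFP+ cells sorted from metaphysis and epiphysis of heterozygous *Pdgfra-H2B-GFP* knock-in males, whose nuclear reporter follows the *Pdgfra* locus. The sources used here do not state how many animals made up a library, so p-values measure the spread between 3 libraries only. The test used estimates that spread for each gene in part from the other genes.

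Members were chosen by their own counts of unique molecular identifiers (UMIs), each of which stands for 1 captured RNA molecule. Barcodes had to show at least 1500 genes (metaphyseal libraries) or 1000 genes (*Pdgfra-GFP* library), at most 15% mitochondrial and at most 30% ribosomal protein UMIs. A stromal gate then asked for at least 2 of *Lepr*, *Adipoq*, *Kitl* and *Esm1*, at least 10 *Cxcl12* UMIs, at most 1 UMI of *Pecam1* and *Cdh5* together, and at most 1 of *Laptm5* and *Tyrobp* together. Gated cells in which *Cxcl9*, *Cxcl10* and *Iigp1* summed to at least 2 UMIs are called interferon cells, and gated cells with a sum of 0 served as the comparison. Of 15628 cells, 6166 passed the stromal gate and 2035 were interferon cells: 219 in metaphyseal replicate 1, 220 in metaphyseal replicate 2 and 1596 in the *Pdgfra-GFP* library. The sum-0 cells numbered 343, 310 and 2053 in the same order, 2706 in all, and 1425 cells with a sum of 1 entered neither group.

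Interferons are secreted proteins that cells release on infection or immune activation. Type I interferons act through the IFNAR receptor and type II interferon, made mainly by T and NK cells, through the IFNGR receptor, and both signal by JAK kinases and STAT proteins to a large set of target genes. *Cxcl9* and *Cxcl10* encode chemokines that draw T cells and NK cells through CXCR3, and *Iigp1* encodes a GTPase that acts on the vacuoles of intracellular parasites. Marrow stromal cells rich in *Lepr* and *Cxcl12*, also called CXCL12-abundant reticular cells, line sinusoids and supply CXCL12 and stem cell factor (*Kitl*) to haematopoietic cells.

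The libraries held 25243314, 22082735 and 91747759 UMIs, of which barcodes with 100 UMIs or fewer held 8.51%, 9.92% and 7.24%. The *Pdgfra-GFP* library gave most of the members and had shallower cells. Interferon cells had a median of 6223 UMIs in metaphyseal replicate 1, 6215 in metaphyseal replicate 2 and 3903 in the *Pdgfra-GFP* library, against 5558, 5519 and 3673 in sum-0 cells. A rule on UMI counts favours deep cells, and the interferon cells were the deeper group in all 3 libraries. Metaphyseal replicates shared 0 cell barcodes, the *Pdgfra-GFP* library shared 9 and 10 with them, and 0 interferon cells were shared. Random draws from the list of possible barcodes would share 0.703, 3.94 and 3.32 in the same order. The source of the shared barcodes was not tested. Scrublet called 2, 0 and 31 of the interferon cells as doublets, and they were kept.

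The cells carried the stromal genes of their name, which the gate itself ensured. *Cxcl12* stood at 23119, 22334 and 21722 CPM, the count of UMIs in 1e6 UMIs of the summed cells, in metaphyseal replicate 1, metaphyseal replicate 2 and the *Pdgfra-GFP* library. All libraries are given in that order from here on. *Kitl* stood at 1636, 1619 and 628 CPM, and *Lepr*, the leptin receptor, at 742, 702 and 482 CPM. The reporter transcript H2B-GFP was found in the sorted library alone, at 123 CPM in interferon cells and 133 CPM in sum-0 cells.

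The rule genes were unequal partners. *Iigp1* was detected in 95%, 90.5% and 91.9% of interferon cells, *Cxcl9* in 21.5%, 28.2% and 46.1%, and *Cxcl10* in 5.48%, 5% and 6.08%. *Iigp1* was the lone rule gene in 74.4%, 69.5% and 52.1% of the cells, and 3, 5 and 68 cells held all 3 genes. A typical member therefore held a few *Iigp1* UMIs: the median sum was 3 in each library. The chemokines were concentrated instead. The top 10% of cells by *Cxcl9* held 94.3%, 86.7% and 71.0% of its UMIs, and single cells reached sums of 231, 72 and 314. In the summed cells *Iigp1* reached 626, 481 and 918 CPM, *Cxcl9* 398, 285 and 484 CPM and *Cxcl10* 41.7, 71.5 and 194 CPM. *Cxcl9* (ENSMUSG00000029417, GRCm38 chr5:92321347-92328079, minus strand) and *Cxcl10* (ENSMUSG00000034855, chr5:92346638-92348889, minus strand) are neighbours on the chromosome. These values chose the cells and were not tested.

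The interferon cells made up 29.0% (95% exact binomial interval 25.8 to 32.3), 31.3% (27.9 to 34.9) and 33.9% (32.5 to 35.3) of the gated cells. These intervals cover counting error only. With each cell thinned to 3000 UMIs, which left out 16, 11 and 1378 shallower cells, the shares were 17.4% (14.8 to 20.4), 17.8% (15.02 to 20.9) and 27.2% (25.7 to 28.8). At equal depth the *Pdgfra-GFP* library thus had the highest share, and with 1 such library the kind of library and the library itself cannot be told apart.

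The same rule was applied to cells outside the stromal gate, because free RNA in the droplets could also place UMIs in cells that do not make them. Endothelial cells (at least 3 UMIs of *Pecam1* and *Cdh5*) reached the sum of 2 in 22.5%, 22.5% and 22.6% of cells, or 13.3%, 12.1% and 14.5% after thinning. Their *Iigp1* stood at 132, 143 and 159 CPM and their *Cxcl9* at 8.82, 6.95 and 21.3 CPM, both below the levels in the stromal gate as a whole (227, 193 and 353 CPM for *Iigp1*). Immune cells reached it in 10.1%, 8.33% and 14.0% of cells. Erythroid cells (at least 3 UMIs of *Hemgn* and *Klf1*) were few, and 1 of 7, 1 of 6 and 1 of 52 reached it (14.3%, 16.7% and 1.92%, or 14.3%, 0 and 1.96% after thinning). That gate shared 0, 0 and 5 cells with the stromal gate, and outside the stromal gate 0 of 47 reached the sum in the *Pdgfra-GFP* library. Osteoblasts, at a median depth of 21009, 20364 and 11206 UMIs, gave 0.943%, 1.12% and 0.680%, and chondrocytes gave 0, 0 and 0.381%. Metaphyseal stromal cells, gated on *Postn* and *Wif1* with fewer than 10 *Cxcl12* UMIs, gave 1.92%, 6.67% and 2.48%. *Cxcl10* was ordered otherwise: immune cells held 109, 57.7 and 43.8 CPM and the stromal gate 12.5, 23.6 and 66.3 CPM. The interferon cells held 41.7, 71.5 and 194 CPM, so immune cells lay above them in metaphyseal replicate 1. Free RNA did hold these transcripts: barcodes of 100 UMIs or fewer carried *Iigp1* at 97.2, 95.4 and 91.0 CPM and *Cxcl9* at 39.6, 35.2 and 45.9 CPM. They carried *Cxcl10* at 15.4, 11.9 and 21.7 CPM. The stromal shares lay above those of osteoblasts and chondrocytes of the same suspensions, which were deeper cells. In the metaphyseal libraries they lay within the wide intervals of the erythroid gate (0.361 to 57.9% and 0.421 to 64.1%). The part that free RNA had in any of these shares was not tested.

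**Figure D1:**
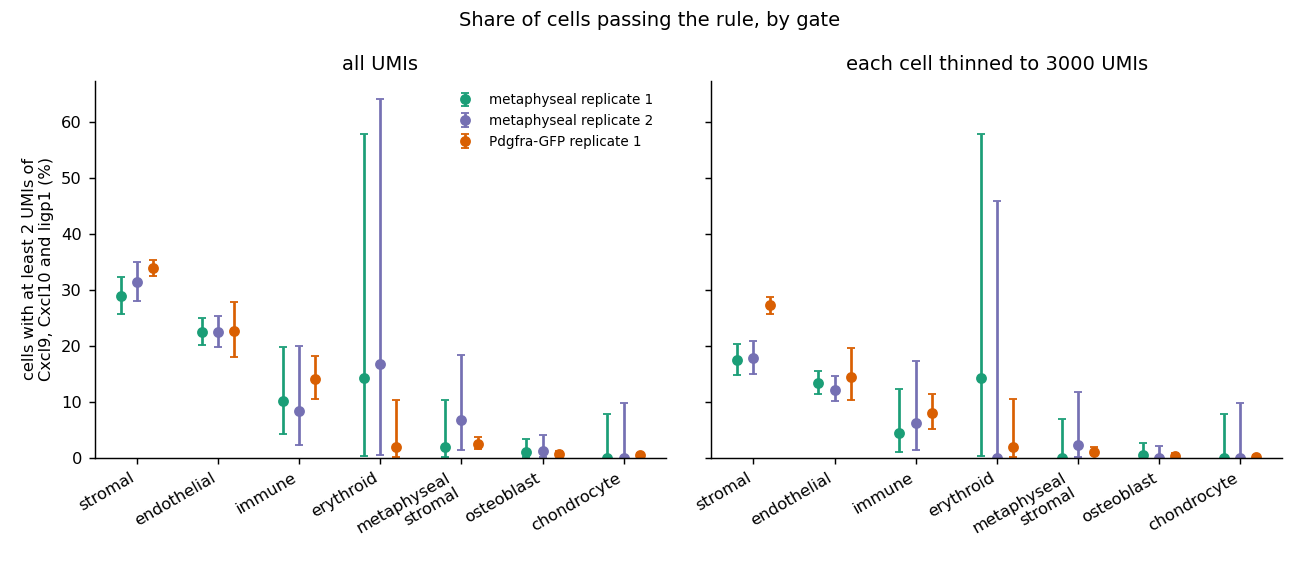
Share of cells with at least 2 UMIs of *Cxcl9*, *Cxcl10* and *Iigp1* (%, vertical axis) in each gate of cells (horizontal axis), with all UMIs (left) and with each cell thinned to 3000 UMIs (right); points are libraries and bars are 95% exact binomial intervals. The stromal gate lies highest, between 29.0% and 33.9% with all UMIs, the endothelial gate lies at 22.5% to 22.6%, the small erythroid gate at 1.92% to 16.7% with wide intervals, and osteoblasts and chondrocytes near 0.

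The threshold cut a gradient rather than a gap. Cells just inside it, with a sum of 2, numbered 83, 93 and 551, and cells just outside, with a sum of 1, numbered 194, 172 and 1059. *Isg15*, which encodes a ubiquitin-like protein attached to other proteins after interferon, stood at 170, 174 and 245 CPM at a sum of 0, at 304, 256 and 340 CPM at 1 and at 343, 415 and 412 CPM at 2. At sums of 20 or more, in 9, 8 and 85 cells, it reached 1661, 819 and 1251 CPM. *Ifit3*, an antiviral gene of the IFIT family, went from 12.2, 9.20 and 23.5 CPM at 0 through 23.7, 59.1 and 76.2 CPM at 2 to 348, 366 and 566 CPM at 20 or more. Sum-1 cells lay between sum-0 and sum-2 cells for *Ifit3* in all 3 libraries. *Gbp2*, which encodes a guanylate-binding protein of the innate defence, moved late: it stood at 39.5, 38.2 and 49.5 CPM at a sum of 2 and at 490, 388 and 936 CPM in cells of 20 or more. *Kitl*, which the gate used, stood at 1483, 1495 and 553 CPM at a sum of 0 and at 1961, 1768 and 561 CPM at 20 or more. The interferon-induced GTPases other than *Iigp1*, summed, climbed from 274, 263 and 270 CPM at 0 to 1882, 905 and 2965 CPM at 20 or more.

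**Figure D2:**
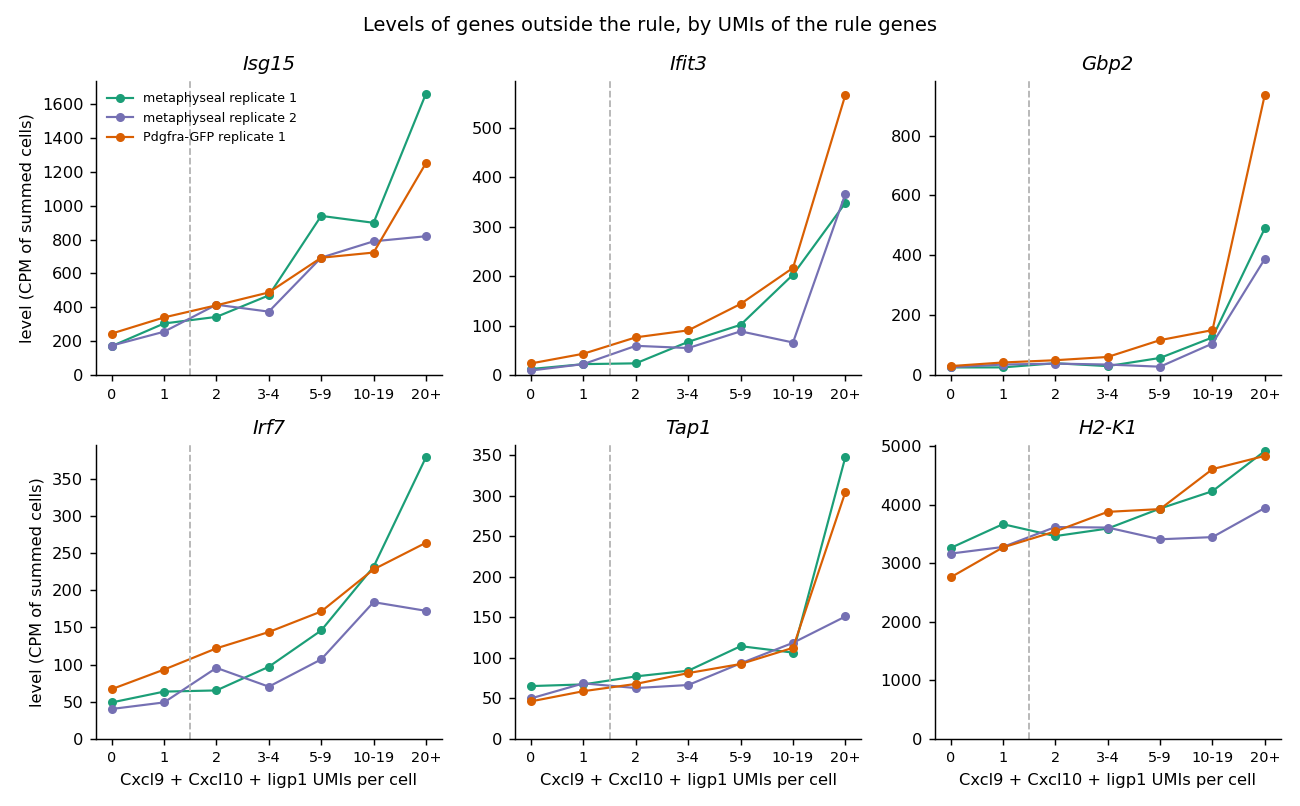
Level of 6 genes outside the rule (CPM of the summed cells, vertical axes) in gated cells binned by their summed *Cxcl9*, *Cxcl10* and *Iigp1* UMIs (horizontal axes), one line per library; the dashed line marks the threshold of 2. Each gene lies higher at sums of 20 or more than at 0 in all 3 libraries, with the smallest ratio for *H2-K1* in metaphyseal replicate 2 (3164 to 3945 CPM); the last metaphyseal bins hold 9 and 8 cells.

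To ask what else differed, UMIs were summed over interferon cells and over sum-0 cells of each library and compared with edgeR's quasi-likelihood test with the library as a block. The 3 rule genes and the 9 gate genes were left out of testing. Of 10831 genes tested, 266 (2.46%) were higher and 278 (2.57%) lower in interferon cells at an adjusted p under 0.05, and 237 and 217 of these had the same direction in all 3 libraries. Most differences were small, since 44 of the higher and 89 of the lower genes reached an absolute log2 fold change of 1, and the median of all tested genes was -0.01. The numbers rested on the *Pdgfra-GFP* library in particular: without it 86 genes were higher and 70 lower, without metaphyseal replicate 2 441 and 434. A sum of 0 at such depth does not mark a cell as free of interferon, so the comparison group may hold undetected members. The lists of genes below were read against these background shares, and a share near 2.5% is no result about a list. The lists were chosen with earlier results of these data known, so a higher share describes a list and does not test it.

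**Figure D3:**
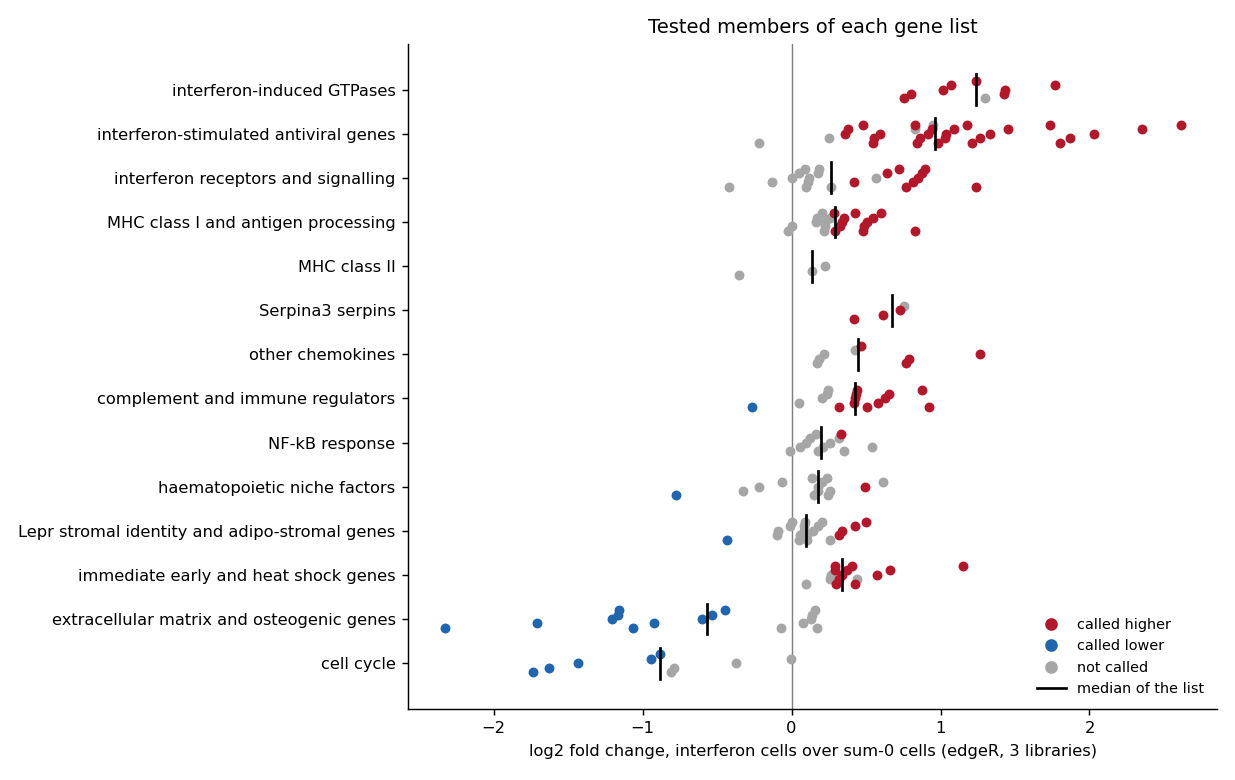
Log2 fold change of interferon cells over sum-0 cells (horizontal axis, edgeR over 3 libraries) for each tested member of the gene lists (rows); red points were called higher, blue points lower, grey points were not called, and black bars are list medians. Among the lists plotted, GTPases (median 1.24) and antiviral genes (0.96) lie furthest to the right and cell cycle genes (-0.88) and matrix and osteogenic genes (-0.57) furthest to the left; markers of other cell types, with medians down to -1.46 for erythroid markers, are not plotted.

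The interferon-induced GTPases were higher almost throughout. Of 18 listed, 3 had no UMI in either group, 9 were abundant enough to test, and 8 of these rose, with a median log2 fold change of 1.24 over the 9. Guanylate-binding proteins (GBPs) and immunity-related GTPases (IRGs) coat the vacuoles of intracellular pathogens and help to break them open. *Gbp2* stood at 65.1, 50.5 and 128 CPM in interferon cells and at 25.4, 26.0 and 29.9 CPM in sum-0 cells. The groups did not overlap, which held for 358 of the genes tested (3.31%) in this direction, and the log2 fold change was 1.77 ± 0.14 (SE, 3 libraries, edgeR adjusted p = 3.57e-09). *Ifi47*, an IRG, stood at 123, 98.9 and 218 CPM against 56.7, 48.2 and 67.5 CPM (log2 fold change 1.42 ± 0.10, edgeR adjusted p = 1.1e-09). *Igtp*, an IRG that guards host membranes, showed 41.0, 33.0 and 95.8 CPM against 19.5, 20.03 and 30.2 CPM (1.43 ± 0.13). *Irgm1* and *Irgm2*, regulators of the other IRGs, rose by 1.02 and 1.07, and *Gbp3*, *Gbp5* and *Gbp7* by 0.80, 1.24 and 0.75 on the log2 scale. *Gbp6* had a log2 fold change of 1.30 ± 0.39 that missed the threshold (edgeR adjusted p = 0.0507). GBP genes lie in a cluster of similar sequences, and the gene models of *Igtp* and *Irgm2* overlap, so reads may be shared among them.

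Antiviral genes followed, with 26 of 38 listed genes higher and 0 lower. Of these 38, 30 were tested, with a median of 0.96, and 2 had no UMI. *Ifit3* (ENSMUSG00000074896, chr19:34583531-34588731, plus strand) was the leading gene of all lists: 78.3, 72.2 and 138 CPM in interferon cells, and 12.2, 9.20 and 23.5 CPM in sum-0 cells. The lowest interferon sum was over 3 times the highest sum-0 sum, and the log2 fold change was 2.61 ± 0.11 (edgeR adjusted p = 2.72e-14). *Ifit3* was detected in 21.9%, 27.7% and 26.4% of interferon cells and in 5.83%, 4.84% and 8.82% of sum-0 cells, and the 10 interferon cells with the most held 52.3%, 39.8% and 16.2% of its UMIs. Outside the 10 top cells of each group it stood at 39.4, 45.7 and 116 CPM against 5.04, 2.79 and 20.8 CPM. *Ifit1*, which binds foreign RNA caps, stood at 132, 139 and 211 CPM against 39.6, 36.3 and 61.3 CPM (1.80 ± 0.09). *Isg15* (ENSMUSG00000035692, chr4:156199424-156200818, minus strand) stood at 565, 475 and 575 CPM against 170, 174 and 245 CPM (1.45 ± 0.09). *Usp18*, the protease that removes ISG15 and dampens IFNAR signalling, stood at 47.5, 37.2 and 58.9 CPM against 10.7, 10.3 and 18.9 CPM (1.73 ± 0.13). Each of these 4 genes was higher in every library without overlap of the groups, as were 358 of all genes tested (3.31%).

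Lower-level antiviral genes had larger errors. *Oasl1* rose by 2.35 ± 0.37, but its ratio hung on metaphyseal replicate 1 (15.4 against 1.95 CPM) and the *Pdgfra-GFP* library (9.43 against 1.42 CPM), with 3.51 against 3.25 CPM in metaphyseal replicate 2. *Cmpk2*, a mitochondrial nucleotide kinase, rose by 2.03 ± 0.36, and *Ifit3b*, close in sequence to *Ifit3*, by 1.87 ± 0.26. The nucleic acid sensor *Zbp1* rose by 1.26, and the RNA sensors *Ddx58* (RIG-I) and *Ifih1* (MDA5) by 0.59 and 0.56. *Ifitm3* and *Bst2*, which block virus entry and release and were abundant in all gated cells, rose least, by 0.38 and 0.36. *Rsad2* (log2 fold change 0.95), *Ifit2* (0.83), *Ifi27l2a* (0.25) and *Isg20* (-0.22) did not pass. Without the *Pdgfra-GFP* library 16 antiviral genes were called, and with sums of 2 to 4 alone, which drops the strongest cells, 17.

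Many interferon target genes carry short control elements before their start. The sequences of 6 promoters, those of *Cxcl10* and *Cxcl9* among them, are printed to show where matches lay, if any. The interferon-stimulated response element (ISRE) is bound by the ISGF3 complex and by IRF proteins, and the gamma-activated site (GAS) by STAT dimers. The 250 bases before the start were searched on both strands for the ISRE core GAAANNGAAA and for the GAS TTCNNNGAA. The sequences are RefSeq GRCm38.p6, written 5′ to 3′ along the gene, with matches on either strand in capitals.
Igtp, chr11:58199306-58199555, plus strand: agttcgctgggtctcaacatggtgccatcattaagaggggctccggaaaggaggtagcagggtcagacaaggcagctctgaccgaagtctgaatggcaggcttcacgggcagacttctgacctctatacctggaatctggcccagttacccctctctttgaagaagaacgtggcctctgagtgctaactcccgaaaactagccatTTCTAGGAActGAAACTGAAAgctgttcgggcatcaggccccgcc
Gbp7, chr3:142530086-142530335, plus strand: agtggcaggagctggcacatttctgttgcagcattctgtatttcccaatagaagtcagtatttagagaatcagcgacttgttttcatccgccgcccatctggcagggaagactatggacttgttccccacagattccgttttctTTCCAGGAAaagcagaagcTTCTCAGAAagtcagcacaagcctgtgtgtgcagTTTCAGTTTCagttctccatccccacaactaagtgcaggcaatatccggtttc
Ifit3, chr19:34583279-34583528, plus strand: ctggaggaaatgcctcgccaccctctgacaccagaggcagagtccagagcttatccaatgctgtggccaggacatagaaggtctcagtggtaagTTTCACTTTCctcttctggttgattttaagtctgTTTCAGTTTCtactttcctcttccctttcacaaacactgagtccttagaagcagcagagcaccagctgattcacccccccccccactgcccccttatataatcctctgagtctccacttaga
Isg15, chr4:156200819-156201068, minus strand: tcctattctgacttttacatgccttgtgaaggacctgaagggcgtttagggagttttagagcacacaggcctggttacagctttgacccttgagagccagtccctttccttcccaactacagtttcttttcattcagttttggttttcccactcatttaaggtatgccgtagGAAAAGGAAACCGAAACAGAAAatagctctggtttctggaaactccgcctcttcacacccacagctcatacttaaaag
Cxcl10, chr5:92348890-92349139, minus strand: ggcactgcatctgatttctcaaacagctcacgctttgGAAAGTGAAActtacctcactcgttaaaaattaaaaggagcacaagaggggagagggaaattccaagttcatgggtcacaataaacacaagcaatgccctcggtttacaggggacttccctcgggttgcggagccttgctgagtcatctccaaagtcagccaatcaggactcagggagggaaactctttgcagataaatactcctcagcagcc
Cxcl9, chr5:92328080-92328329, minus strand: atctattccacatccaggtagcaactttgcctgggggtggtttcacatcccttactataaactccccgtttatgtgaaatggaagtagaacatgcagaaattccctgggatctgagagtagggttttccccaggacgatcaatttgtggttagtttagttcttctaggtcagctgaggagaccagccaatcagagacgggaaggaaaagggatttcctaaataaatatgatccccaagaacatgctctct

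In *Igtp* an ISRE core and a GAS began 34 and 45 bases before the start, side by side. *Gbp7* had an ISRE core at 53 and GAS matches at 106 and 87 bases. *Ifit3* held ISRE cores at 156 and 122 bases and no GAS, and *Isg15* a run of 3 overlapping ISRE cores at 78, 72 and 66 bases. Among the rule genes, *Cxcl10* held 1 ISRE core at 213 bases, and neither set of letters was in the *Cxcl9* window. Over the promoters of all 27025 genes with a window, 3.46% held an ISRE core and 8.13% a GAS, and over the 8290 tested genes with a window 3.20% and 6.89%. Of the 193 genes called higher that had a window, 15.5% held an ISRE core and 11.9% a GAS, and of the 199 called lower 4.52% and 3.52%. Among the called GTPases 7 of 8 held an ISRE core (87.5%), and among the called antiviral genes 8 of 20 (40%). The core was in 2 of 6 signalling genes and 2 of 10 MHC class I genes called higher. It was in 0 of 7 complement genes, 0 of 2 chemokines, 0 of 3 Serpina3 genes and 0 of 9 immediate early genes called higher. Of the genes named as higher outside the lists, 1 of 7 held it. A GAS was in 4 of 8 GTPases, 2 of 20 antiviral, 3 of 6 signalling and 1 of 10 MHC class I genes called higher. In the other lists a GAS was in 1 of 7 complement genes, 0 of 2 chemokines, 2 of 3 Serpina3 genes and 1 of 9 immediate early genes. Outside the lists 1 of 7 named genes held a GAS. A match describes the letters and not a bound site.

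Signal transducers rose in part. Of 23 listed, 21 were tested and 9 rose, with a median of 0.26 and 0 lower. *Irf7*, the transcription factor that amplifies type I interferon, rose most, at 114, 95.4 and 158 CPM against 48.8, 40.1 and 66.8 CPM (log2 fold change 1.24 ± 0.09, edgeR adjusted p = 5.52e-10). *Stat2* and *Irf9*, which act together on the ISRE, rose by 0.85 and 0.72. *Irf1*, an early interferon-induced transcription factor, stood at 173, 151 and 84.6 CPM against 105, 126 and 46.7 CPM (0.64 ± 0.09). The receptor chains did not pass: log2 fold changes were 0.05 for *Ifnar1*, 0.17 for *Ifnar2*, 0.26 for *Ifngr1* (edgeR adjusted p = 0.0524) and 0.09 for *Ifngr2*. Nor did the kinases *Jak1*, *Jak2* and *Tyk2* or the feedback inhibitors *Socs1* (-0.13) and *Socs3* (0.12).

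The interferons listed were not seen. Of 14 interferon and inflammatory cytokine genes 8 had no UMI in either group, among them all 6 interferons, *Ifng*, *Ifnb1*, *Ifna2*, *Ifna4*, *Ifnl2* and *Ifnl3*, while 6 other cytokine genes had at least 1. The sums held 1367289, 1426023 and 6996859 UMIs of interferon cells and 2047154, 1847144 and 9136148 UMIs of sum-0 cells, so RNA of these interferons was not detectable at this depth. The 2 testable ligands, *Il18* and *Il12a*, had log2 fold changes of -0.13 each and did not pass.

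Genes of MHC class I antigen presentation rose modestly. Of 22 listed, 21 were tested and 12 rose, with a median of 0.29 and 0 lower. *Tap1*, a chain of the transporter that loads peptides, led with 98.7, 74.3 and 95.04 CPM against 65.0, 49.8 and 46.1 CPM (log2 fold change 0.83 ± 0.10, edgeR adjusted p = 3.79e-06). The immunoproteasome subunits *Psmb8*, *Psmb9* and *Psmb10* rose by 0.48, 0.50 and 0.28, *Tap2* by 0.42 and *Tapbp* by 0.33. *H2-K1*, a classical heavy chain, rose by 0.29 ± 0.08, while *H2-D1* (0.22) and *B2m* (0.16), the light chain, did not pass. H2-Q genes are close copies and their split is uncertain. Without the *Pdgfra-GFP* library, and with a gate of at least 1 *Iigp1* UMI, 4 of these genes were called. Of 8 MHC class II genes 3 were tested and 0 were called, and *Cd74*, the class II chaperone, was at 0, 0 and 7.43 CPM in interferon cells. Its log2 fold change was -0.35 (edgeR adjusted p = 0.738).

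Chemokines beyond the rule genes were few. Of 17 listed, 8 were tested and 4 rose: *Cxcl13* (1.27 ± 0.36), *Ccl7* (0.79 ± 0.16), *Ccl2* (0.77 ± 0.13) and *Ccl9* (0.47 ± 0.11). In metaphyseal replicate 1 *Ccl7* and *Ccl9* were lower in interferon cells (ratios of 0.973 and 0.911). *Cxcl13* stood at 16.8, 2.81 and 8.29 CPM against 0.977, 1.62 and 4.93 CPM, with 2 and 3 UMIs in the metaphyseal sum-0 cells. *Cxcl11*, the remaining CXCR3 ligand, had no UMI. *Ccl2*, which draws monocytes, stood at 44.6, 48.4 and 124 CPM against 42.5, 41.1 and 57.4 CPM, so its difference lay in the *Pdgfra-GFP* library, where cells with sums of 20 or more reached 581 CPM. Without that library 0 chemokines were called, and without metaphyseal replicate 2 7. The DESeq2 test, the gate of at least 1 *Iigp1* UMI and the omission of cells that held *Postn*, *Wif1*, *Mki67* or *Top2a* also left 0 of the 4.

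Among complement genes and immune regulators, 11 of 20 listed rose and 1 fell, with 16 tested and a median of 0.43. *Serping1*, the C1 inhibitor, stood at 2062, 1960.0 and 2961 CPM against 1484, 1671 and 2034 CPM (0.42 ± 0.08). The C1 proteases *C1ra* and *C1s1* rose by 0.51 and 0.32, *C2* by 0.63 and *Cfb* by 0.87. *Il18bp*, which neutralises interleukin-18, rose by 0.92 and *Il15* by 0.43. *Cd274*, the checkpoint ligand PD-L1, was too rare to test, with a mean of 2.01 CPM in interferon cells and 0.0730 CPM in sum-0 cells. Without the *Pdgfra-GFP* library 3 of the 11 were called, and without cells that held *Postn*, *Wif1*, *Mki67* or *Top2a* 1 was.

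Of 7 Serpina3 genes 4 were tested and 3 rose, with a median of 0.67. *Serpina3f*, a serine protease inhibitor that had been proposed as a marker of these cells, stood at 124, 125 and 335 CPM against 86.5, 112 and 156 CPM, higher within each library but with overlapping groups. Its log2 fold change was 0.73 ± 0.11 (edgeR adjusted p = 0.000107). It was no exclusive mark, since 48.4%, 43.6% and 57.9% of interferon cells and 34.1%, 39.7% and 38.9% of sum-0 cells held it. *Serpina3c* rose by 0.62 and *Serpina3g* by 0.42, and 0 of the 3 were called without the *Pdgfra-GFP* library. The Serpina3 genes are near copies of each other, so the split between them is uncertain. *Cbln1*, a secreted cerebellin and the other proposed marker, stood at 54.1, 54.0 and 110 CPM against 41.5, 71.5 and 50.9 CPM. Its direction differed between libraries: the pooled log2 fold change of 0.64 ± 0.15 (edgeR adjusted p = 0.0118) became -0.042 without the *Pdgfra-GFP* library.

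Other stromal programmes moved little. Of 14 NF-kB response genes 12 were tested and 1 rose, *Vcam1* (0.33 ± 0.08), which encodes an adhesion molecule for haematopoietic cells. *Nfkbia* (0.12) and *Sod2* (0.10) did not pass. Of 15 niche factors 14 were tested. *Il34*, a ligand of the CSF1 receptor, rose by 0.49 ± 0.08, and *Spp1*, osteopontin, fell by 0.77 ± 0.09. *Il7* (0.20), *Csf1* (0.14) and *Angpt1* (0.18) did not pass. Of 20 genes of stromal identity, all tested, *Chrdl1*, *Hp*, *Pparg* and *Lpl* rose by 0.50, 0.43, 0.34 and 0.32 and *Gas1* fell by 0.43. The transcription factors of these cells did not pass, with 0.05 for *Ebf3*, 0.06 for *Foxc1*, 0.08 for *Ebf1* and -0.09 for *Runx2*, and the list median was 0.10. Without metaphyseal replicate 1 2 of the 20 were higher, and without metaphyseal replicate 2 7, along with 6 niche factors and 3 NF-kB genes. Without cells that held *Postn*, *Wif1*, *Mki67* or *Top2a*, 0 of the 5 identity genes, 0 of the 2 niche factors and 0 of the 1 NF-kB gene were called.

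The stromal gate genes *Lepr*, *Adipoq*, *Kitl*, *Esm1* and *Cxcl12*, which were not tested, lay higher in interferon cells of all 3 libraries as well. *Adipoq*, adiponectin, stood at 2729, 2722 and 5361 CPM against 2413, 2422 and 3709 CPM, and *Esm1* at 1372, 1204 and 991 CPM against 1078, 1180 and 689 CPM. At least 3 of the 4 stromal gate genes were detected in 99.5%, 98.6% and 94.3% of interferon cells and in 92.4%, 94.5% and 82.5% of sum-0 cells. Cells without any UMI of *Postn*, *Wif1*, *Mki67* or *Top2a* made up 54.3%, 53.2% and 64.4% of interferon cells and 50.4%, 48.1% and 49.1% of sum-0 cells. The share with at least 3 gate genes was set in part by the gate and rises with depth, and interferon cells were deeper. It therefore cannot decide whether the make-up of the groups differed, which was not tested. The share without *Postn*, *Wif1*, *Mki67* or *Top2a* differed most in the *Pdgfra-GFP* library. When cells with any of those 4 genes were left out, 93 genes were higher and 33 lower, and 44 of the 55 GTPase, antiviral, signalling and MHC class I genes called higher were called again, with 52 tested and all 52 of them higher.

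Most listed matrix and osteogenic genes were lower. Of 16 listed, all tested, 10 fell and 0 rose, with a median of -0.57. With doublets removed 6 of the 10 were called, and 5 with sum-0 cells matched on UMIs, with DESeq2 or with the *Iigp1* gate. The summed list stood at 14339, 21308 and 29115 CPM against 20389, 20449 and 37865 CPM, higher in interferon cells of metaphyseal replicate 2. *Wif1*, a secreted Wnt inhibitor, stood at 181, 207 and 275 CPM against 367, 396 and 804 CPM, below in every library (log2 fold change -1.21 ± 0.10, edgeR adjusted p = 9.54e-09). It was found in 43.4%, 43.2% and 33.0% of interferon cells and in 47.8%, 50.6% and 48.4% of sum-0 cells. *Alpl*, alkaline phosphatase, stood at 140, 186 and 195 CPM against 321, 295 and 543 CPM (-1.16 ± 0.11), *Sp7*, the osteoblast transcription factor osterix, fell by 0.92 and *Postn*, periostin, by 1.71. When cells with *Postn*, *Wif1*, *Mki67* or *Top2a* were left out, which by itself removes *Postn* and *Wif1* from the test, 3 of the other 8 were called.

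*Bglap*, osteocalcin, stood at 30.7, 109 and 1969 CPM against 877, 522 and 4028 CPM (-2.33 ± 0.32, edgeR adjusted p = 1.77e-05). Few cells held most of these UMIs in both groups: the 10 with the most *Bglap* held 73.8%, 82.1% and 72.0% in interferon cells and 97.8%, 92.9% and 60.3% in sum-0 cells. Outside those cells the level was 8.51, 21.3 and 560 CPM against 20.5, 39.8 and 1632 CPM, so the gap narrowed in the metaphyseal libraries and not in the *Pdgfra-GFP* library. *Bglap* was detected in 9.59%, 17.3% and 86.4% of interferon cells and in 14.6%, 21.6% and 86.8% of sum-0 cells, shares that lay closer together than the levels. *Col1a1*, the main bone collagen, stood at 445, 3729 and 2754 CPM against 3282, 3130 and 5547 CPM, higher in interferon cells of metaphyseal replicate 2 alone. The 10 cells with the most *Col1a1* held 35.03%, 91.4% and 55.9% of its UMIs in interferon cells and 88.3%, 87.6% and 32.5% in sum-0 cells. Outside them it stood at 309, 352 and 1239 CPM against 411, 423 and 3818 CPM, lower in interferon cells of all 3 libraries and most so in the *Pdgfra-GFP* library.

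Cell cycle genes were low throughout and lower in interferon cells. Of 10 listed, 9 were tested and 5 fell, with a median of -0.88. *Mki67* stood at 4.39, 2.10 and 3.43 CPM against 10.3, 4.33 and 13.2 CPM (log2 fold change -1.73 ± 0.29, edgeR adjusted p = 0.000244), and *Top2a* fell by 1.44. *Pcna*, the replication clamp, did not pass. Of the 5, 0 were called without the *Pdgfra-GFP* library, with each cell thinned to 3000 UMIs, with the DESeq2 test, or without cells that held *Postn*, *Wif1*, *Mki67* or *Top2a*, which by itself removes *Mki67* and *Top2a*. Immediate early and heat shock genes, which respond to tissue dissociation, were higher: 11 of 15 rose, with a median of 0.34. Their summed level did not follow the rule genes in metaphyseal replicate 2, where it was 7326 CPM at a sum of 0, 9926 CPM at 3 to 4 and 4420 CPM at 20 or more, whereas it reached 12132 CPM (from 7087) and 2651 CPM (from 1823) at 20 or more in the other libraries. *Dnajb1*, a co-chaperone, stood at 165, 163 and 60.5 CPM against 77.2, 100 and 47.2 CPM (0.66 ± 0.10), and *Jun* and *Fos* rose by 0.34 and 0.29. Of the 11, 6 were called again without metaphyseal replicate 1, 2 with members chosen on *Cxcl9* and *Cxcl10* alone, and 0 in cells without *Postn*, *Wif1*, *Mki67* and *Top2a*, where *Atf3* went from 1.15 to -0.54. The part that handling or cell state had in these 2 lists was not tested.

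Markers of other cells were checked for RNA carried along. T and NK cells, the known makers of *Ifng*, left almost nothing: their 6 markers summed to 0, 0.701 and 0.572 CPM in interferon cells, and *Cd3e* and *Gzma* had no UMI. Of 6 macrophage markers 1 could be tested, *Lyz2*, with a log2 fold change of 0.17 (edgeR adjusted p = 0.798). Of 7 endothelial markers 4 were tested and 0 were called, with *Eng* the one with the most UMIs and a median of 0.14. The gate itself limited *Pecam1*, *Cdh5*, *Laptm5* and *Tyrobp* to 1 UMI a pair. Of 4 mural markers 3 were tested and 1 fell, *Acta2*, by 1.68, while *Rgs5* had a log2 fold change of 0.82 (edgeR adjusted p = 0.128) and *Tagln* of -0.34. The mural markers summed to 146, 87.0 and 76.6 CPM in interferon cells against 94.3, 143 and 133 CPM, higher in metaphyseal replicate 1 alone.

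Some markers did move with the groups. The 4 B-lineage markers summed to 25.6, 12.6 and 7.57 CPM in interferon cells against 1.95, 2.71 and 13.5 CPM in sum-0 cells, higher in both metaphyseal libraries and lower in the *Pdgfra-GFP* library. The most abundant, *Ighm*, the IgM heavy chain, was the 1 tested and had 23, 4 and 25 UMIs against 2, 4 and 70 (log2 fold change 0.05, edgeR adjusted p = 0.99), and *Ms4a1* had no UMI in metaphyseal interferon cells. The neutrophil genes *S100a8* and *S100a9* stood at 18.3, 27.3 and 117 CPM and 19.7, 40.0 and 109 CPM in interferon cells against 18.6, 33.6 and 44.5 CPM and 31.8, 48.2 and 39.8 CPM. They were higher in the *Pdgfra-GFP* library alone, where 10 interferon cells held 64.9% of the *S100a8* UMIs, and outside the 10 top cells of each group *S100a8* stood at 41.4 against 41.2 CPM there. Their log2 fold changes of 0.97 and 0.82 became -0.18 and -0.42 without that library, and with doublets removed 0 neutrophil genes were called. Haemoglobin was lower, and of 5 erythroid markers 3 were tested and 2 fell. *Hbb-bs* stood at 184, 115 and 1386 CPM against 3936, 332 and 1483 CPM, and 10 sum-0 cells of metaphyseal replicate 1 held 97.5% of its UMIs there. Leaving out the 1, 0 and 9 interferon cells and 2, 2 and 15 sum-0 cells with at least 1% haemoglobin UMIs brought its log2 fold change from -1.89 to 0.10, and the GTPase and antiviral calls then numbered 9 and 27. Of 4 chondrocyte markers 3 fell, which were rare in the metaphyseal libraries and of which 0 were called without the *Pdgfra-GFP* library: *Col2a1* stood at 13.9, 22.4 and 1102 CPM against 14.7, 20.6 and 2388 CPM. The part of such RNA in the other differences was not tested.

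Outside the lists, 12 genes that rose and 12 that fell were named by size among those moving the same way in all 3 libraries. *Gm12250*, also called *Irgb10* and annotated as a processed pseudogene, stood at 24.9, 16.1 and 41.9 CPM against 4.88, 7.58 and 8.43 CPM (log2 fold change 2.15 ± 0.18, edgeR adjusted p = 1.66e-08). *Phf11d*, *Mlkl*, which executes necroptosis, *Ly6e*, a membrane protein that restricts coronaviruses, and *Sp100*, a nuclear body protein, rose by 1.06, 1.01, 0.96 and 0.86. *Fabp4*, a fatty acid carrier of adipocytes and capillaries, stood at 70.9, 55.4 and 464 CPM against 43.5, 49.3 and 88.4 CPM (1.69 ± 0.22). In the *Pdgfra-GFP* library it was found in 20.1% of interferon cells and 12.8% of sum-0 cells, and 10 interferon cells held 64.9% of its UMIs. Outside the 10 top cells of each group *Fabp4* stood at 30.7, 20.5 and 165 CPM against 25.6, 21.3 and 63.4 CPM. *Hsd11b1*, which reactivates glucocorticoids, rose by 1.11, again in the *Pdgfra-GFP* library (64.5 against 25.6 CPM), and *Apod*, a lipid carrier, by 0.82 in all 3 libraries. *Plscr2*, *Atp6v1c2*, *Pla1a* and *Xdh* rose by 0.99, 0.89, 0.85 and 0.83. Genes that fell were *Bglap2* (-2.22), *Mest* (-1.55), the keratan sulfate proteoglycan *Omd* (-1.37), the phosphate transporter *Slc20a2* (-1.36), *Cadm1* (-1.34) and *Cpe* (-1.25). *Ppfibp2* (-1.46), *Spata13* (-1.45), *Nav2* (-1.28) and *Vldlr* (-1.24) fell too. The rest were the haemoglobin genes *Hbb-bt* (-1.71) and *Hba-a2* (-1.45). With haemoglobin under 1% *Hbb-bt* went to 0.085.

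**Figure D4:**
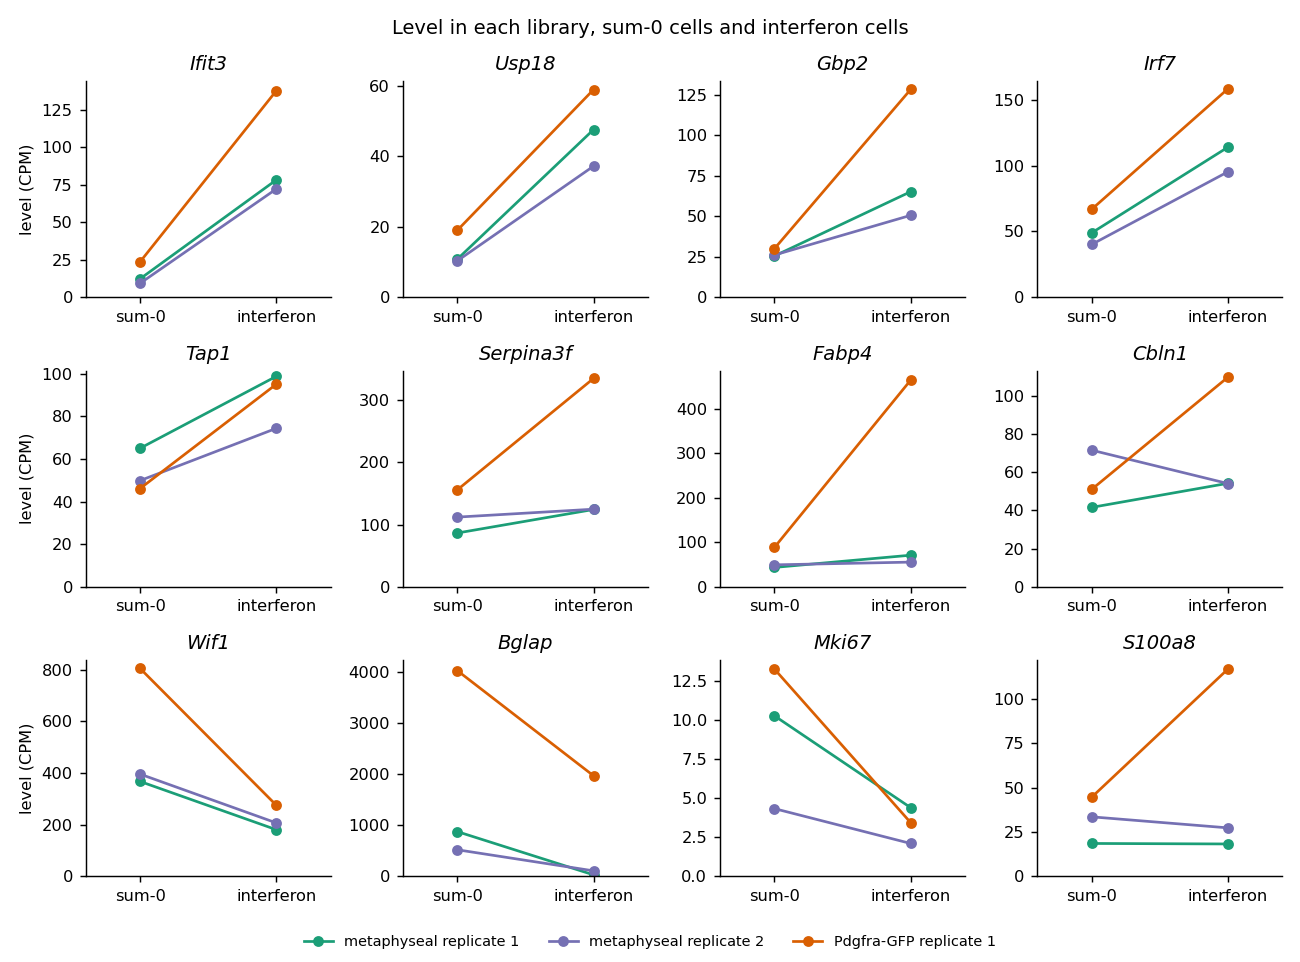
Level of 12 genes (CPM, vertical axes starting at 0) in sum-0 cells and interferon cells (horizontal axes), one line per library. *Ifit3*, *Usp18*, *Gbp2*, *Irf7* and *Tap1* climb and *Wif1*, *Bglap* and *Mki67* fall in each library, whereas *Cbln1* and *S100a8* climb in the *Pdgfra-GFP* library (*Cbln1* from 50.9 to 110 CPM) and fall in metaphyseal replicate 2 (71.5 to 54.0 CPM).

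The calls among GTPase, antiviral, signalling and MHC class I genes were also made under other settings. With members chosen on *Cxcl9* and *Cxcl10* alone, 46 of these 55 genes were called again. With at least 1 UMI of *Iigp1* as the rule, which changes the gene and lowers the threshold and so takes in 385, 353 and 2309 cells, 39 were called again. With doublets removed 52 were called again, and with each cell thinned to 3000 UMIs 44, with 52 tested. The thinned groups were those chosen before thinning, so that setting cannot show what the choice of deep cells did. After thinning, 129 of 219, 123 of 215 and 907 of 1211 members still reached the sum of 2. Every tested one of the 55 stayed above 0 in all 18 alternatives. Without the *Pdgfra-GFP* library 34 were called, without metaphyseal replicate 1 49, and without the library block 0, although all 53 then tested were higher.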

How the data were processed

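Single cell RNA sequencing of 2 metaphyseal libraries and 1 *Pdgfra-GFP* library was analysed from the processed files. Per the methods and labels, the authors trimmed reads with fastp 0.20, aligned them with STARsolo (STAR 2.7.3a) to mm10, annotated by Gencode M23 plus the reporter's sequence, and deposited unfiltered, raw UMI counts (whole numbers, 55422 genes, every whitelist barcode). Strand settings of the counting are not given in the sources used here. Columns of per-sample values left unused numbered 0.

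Cells were filtered and gated as given in the report, which also states depth. The members and gene lists were chosen with earlier results of these data known. Counts were summed per library and group (a gate needed at least 5 interferon cells per library) and tested with edgeR 4.0.16 in R 4.3.3: filterByExpr, TMM, quasi-likelihood test, library as block, Benjamini-Hochberg adjustment over all 10831 genes tested, threshold 0.05. Each SE was obtained by dividing the log2 fold change by the root of its F statistic. Both sums of a library came from 1 suspension and so pair; their deviations from group means correlated across 10840 genes with r of 0.532, 0.526 and 0.868. The fit was tested on simulated data first. Named genes were called list members, up to 8 a list by size, and outside the lists the 12 largest called changes each way with the same direction in all libraries and at least 20 CPM in the higher group. List members that did not pass, and a few named beyond these rules, were named after their values were seen.

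Shares carry exact binomial intervals at the 95% level, which cover counting error only. Scrublet (scanpy 1.11.5, Python 3.11.15) marked doublets, which stayed in. Gene positions are Gencode M21 on GRCm38 and promoters RefSeq GRCm38.p6; 193 of 266 genes called higher and 199 of 278 called lower had a promoter window. Alternatives changed the normalisation, test (DESeq2 1.42.0), low-count filter, block, libraries, doublets, sum-0 cells (matched on UMIs), thinning to 3000 UMIs and the gates. A further 4 were chosen after seeing the data: sums of 2 to 4, haemoglobin under 1%, at least 3 stromal genes, and no UMI of *Postn*, *Wif1*, *Mki67* or *Top2a*. EmptyDrops and the authors' clustering were not used here. Individual results for 2 list members are not reported here.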

Additional observations from a re-analysis of the deposited data

Results flagged for a closer look

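For 19 named genes the log2 fold change of interferon cells over sum-0 cells differed between the *Pdgfra-GFP* library and the metaphyseal libraries by edgeR's interaction test, out of 67 genes that passed it among all tested. With 1 *Pdgfra-GFP* library and 5 coefficients for 6 sums, the spread came from the difference between both metaphyseal libraries and from other genes, and kind of library and single library cannot be told apart. Values are the *Pdgfra-GFP* log2 fold change minus the metaphyseal one.

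Among genes higher in interferon cells the difference was 0.91 for *Gbp2*, 0.95 for *Ccl2*, 0.75 for *Serpina3f*, 0.83 for *Serpina3c*, 1.93 for *Fabp4* and 1.14 for *Cbln1*, each larger in the *Pdgfra-GFP* library. The neutrophil genes *S100a8* and *S100a9* differed by 1.55 and 1.85. Among stromal and osteogenic genes that fell, the drop was deeper in the *Pdgfra-GFP* library for *Wif1* (-0.59), *Alpl* (-0.57), *Fn1* (-0.92) and *Slc20a2* (-0.94). The cartilage collagen *Col2a1* (-1.18) was lower in that library, with a ratio of 0.461, and had ratios of 0.948 and 1.09 in the metaphyseal libraries.

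*Bglap* and *Bglap2* fell less in the *Pdgfra-GFP* library, by 2.25 and 2.76. So did haemoglobin, by 3.06 for *Hbb-bs*, 2.74 for *Hba-a1*, 3.49 for *Hbb-bt* and 3.13 for *Hba-a2*. For these genes the metaphyseal libraries disagreed with each other: the ratio of interferon to sum-0 level was 0.0466 and 0.346 for *Hbb-bs* and 0.0350 and 0.210 for *Bglap*. In metaphyseal replicate 1, 10 sum-0 cells held 97.5% of the *Hbb-bs* and 97.8% of the *Bglap* UMIs. Outside the 10 top cells of each group *Bglap* stood at 8.51, 21.3 and 560 CPM against 20.5, 39.8 and 1632 CPM. By those levels its drop was not smaller in the *Pdgfra-GFP* library. *Fabp4* UMIs were concentrated as well, with 64.9% in 10 interferon cells of the *Pdgfra-GFP* library. Outside the 10 top cells of each group its level there was 165 against 63.4 CPM.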

How the results depend on the processing

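The 544 calls (266 higher, 278 lower) moved most with the fit. Without the replicate block edgeR called 0 of 10395 genes (224 at an unadjusted p under 0.05), so also 0 GTPase, 0 antiviral, 0 MHC class I and 0 matrix genes, while DESeq2 with the block called 113 (67 higher, 46 lower; 14 antiviral, 4 MHC class I, 5 matrix). Leaving out 1 library gave 156 to 875 calls (86 to 441 higher, 70 to 434 lower), lowest without the *Pdgfra-GFP* library and highest without metaphyseal replicate 2, with 16 to 28 antiviral and 4 to 15 MHC class I genes. Other gates gave 262 (139 higher, 123 lower) for *Cxcl9* and *Cxcl10* alone and 274 (126, 148) for at least 1 UMI of *Iigp1*, which changes the gene and the threshold together. Cells thinned to 3000 UMIs, with groups chosen before thinning, gave 324 (166, 158). At least 3 stromal genes gave 300 (167, 133), no *Postn*, *Wif1*, *Mki67* or *Top2a* gave 126 (93, 33), and sums of 2 to 4 gave 169 higher. MHC class I calls were 4 for that *Iigp1* gate and 3 for sums of 2 to 4, which left 17 antiviral calls. Matrix calls (10) were 6 without doublets, 5 with the *Iigp1* gate, 5 with sum-0 cells matched on UMIs and 3 without cells with *Postn* and the others, which takes *Postn* and *Wif1* out of the test. The matching kept 328, 309 and 2053 of the 343, 310 and 2053 sum-0 cells and left the depths unequal (medians of 5584, 5508 and 3673 UMIs). The cause of these shifts was not tested.

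Shares of interferon cells were 54.6%, 55.8% and 56.4% at a sum of at least 1, 17.99%, 18.1% and 22.2% at 3, 17.4%, 17.8% and 27.2% thinned, and 36.0% in the *Pdgfra-GFP* library at 1500 genes. Signs turned without the *Pdgfra-GFP* library for *S100a8* (-0.18), *S100a9* (-0.42), *Col2a1* (0.050) and *Cbln1* (-0.042), which reached 1.22, 1.11, -0.95 and 0.94 without metaphyseal replicate 2, with haemoglobin under 1% for *Hbb-bs* (0.10), *Hba-a1* (0.062) and *Hbb-bt* (0.085), and without cells with *Postn*, *Wif1*, *Mki67* or *Top2a* for *Atf3* (-0.54), *Lum* (0.36), *S100a9* (-0.16) and *Hbb-bs* (0.0036). The other genes chosen by the naming rule kept their direction in the alternatives that tested them. Depth limits the metaphyseal sums, where genes such as *Col9a1* and *Matn3* rest on 0 to 4 UMIs a sum.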
